A study of Homo sapiens with 4 samples.

Results

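SAMD9, SAMD9L, IFITM1, IFITM2 and IFITM3 are interferon-inducible restriction factors, proteins with which a cell limits virus replication. They were followed as 5 genes of the 18417 measured, in RNA of SNU-16, an established human line from gastric carcinoma, after growth in mice. The genes were chosen by name and selected on their measured site differences, after SAMD9 and SAMD9L had been seen to be low and IFITM3 high in ovary on these same arrays. Differences between sites are therefore given as a description, with no test. All probe sets carrying these names were used: each gene has 1, and no probe set with several gene names holds any of them.

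BALB/c nude mice, which lack T cells, received SNU-16 cells in the wall of the stomach. The stomach group of round 1 is a culture from the tumour at the implanted stomach, and the ovary group of round 1 a culture from ovarian metastases. Each culture was implanted into the stomach again, and round 2 holds the stomach tumour grown from stomach-derived cells and the ovarian metastasis grown from ovary-derived cells. There are 4 arrays, 1 for each combination of 2 sites and 2 rounds, and no age, dose or number of animals is given in the sources used here. Every sample descends from the same cell line, and each round 2 sample from the round 1 sample of its site. The p-values therefore measure no spread between independent animals. For rounds they are set against the spread between the 2 lineages within a round, and for sites against the spread between passages. Part of either spread may be technical. For both round 2 samples, part of the free-text description names the other site. Titles and tissue labels, which name the same site, were followed. With the round 2 sites exchanged, the mean ovary minus stomach difference would be -0.44 for SAMD9, -0.52 for SAMD9L and 0.37 for IFITM3, against -0.80, -0.92 and 0.79 as labelled.

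Interferons bind receptors that signal through Janus kinases to a transcription factor complex with IRF9, which binds interferon-stimulated response elements in the promoters of many antiviral genes. SAMD9 and SAMD9L are large cytoplasmic paralogs, encoded side by side, that restrict poxviruses, shut down translation and restrain cell growth. The IFITM proteins are small membrane proteins, also encoded in a cluster: IFITM3 and IFITM2 act mainly in endosomes and IFITM1 mainly at the cell surface, where they hinder fusion of viral with cellular membranes.

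The promoter stretches below are shown because all 4 of the genes found in the promoter table carry letters of the response element, although their site differences had different signs. They come from RefSeq, build GRCh38.p14, and are written 5′ to 3′ on the strand of the gene, with the matched letters in capitals. SAMD9 lies at chr7:93118081-93118140 (minus strand), SAMD9L at chr7:93148399-93148457 (minus strand), IFITM1 at chr11:314009-314068 (plus strand) and IFITM3 at chr11:320861-320920 (minus strand).
SAMD9: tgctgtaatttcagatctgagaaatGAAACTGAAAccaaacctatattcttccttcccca
SAMD9L: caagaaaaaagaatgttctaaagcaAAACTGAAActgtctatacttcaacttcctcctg
IFITM1: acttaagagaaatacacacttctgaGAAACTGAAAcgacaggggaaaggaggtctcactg
IFITM3: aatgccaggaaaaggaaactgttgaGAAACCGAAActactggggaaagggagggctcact

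The motif searched was GAAA, any 2 bases and GAAA again, on both strands, in windows from 250 bases before to 50 bases after each start. It was present in SAMD9 (first base at -136 from the start), at 2 places in IFITM1 (-40 and -6) and at 2 places in IFITM3 (-52 and -35). SAMD9L held only the shorter form AAANNGAAA, which every match of the longer form also contains, at -47. Of all 35116 windows in the table, 3.57% held the longer form and 10.5% the shorter. Of 58 windows of 42 interferon effector genes from the lists described further on, 29 held the longer form. Over the aligned windows, IFITM1 and IFITM3 were identical at 59.9% of positions and SAMD9 and SAMD9L at 45.9%. A match is a description of the letters and does not show that a factor binds.

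Values are on a log2 scale, so a difference of 1 is a 2-fold change. The 4 arrays had medians between 6.80 and 6.84 over 33297 probe sets, and with so few arrays every comparison is imprecise. A mean above 5.64, the 30th percentile over all probe sets, admitted 14547 genes to the tests, with SAMD9, SAMD9L, IFITM1 and IFITM3 among them and IFITM2 outside. The label of the cells was borne out by their epithelial markers. The 7 measured epithelial genes, EPCAM, CDH1 and keratins among them, had a median between 11.65 and 12.01 on every array. Leukocyte (12 genes), endothelial (9), fibroblast (11) and ovarian (9) markers had medians between 5.46 and 6.12, close to the signal minimum. Single genes of these lists spread widely around the medians. The leukocyte gene PTPRC lay between 3.97 and 4.11, but TYROBP of the same list between 7.38 and 7.48. The fibroblast gene COL1A1 lay between 7.54 and 7.62 and the ovarian gene ZP3 between 8.38 and 9.04.

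SAMD9 differed more between the rounds than between the sites. Its level was 8.32 in stomach and 7.08 in ovary of round 1, and 9.27 in stomach and 8.91 in ovary of round 2. The round 1 ovary array was the lowest, both round 2 arrays lay above both round 1 arrays, and the sites overlapped. SAMD9 was 2.36-fold lower in ovary than in stomach in round 1 and 1.28-fold lower in round 2. The site means were 8.79 ± 0.67 in stomach and 7.99 ± 1.29 in ovary (SD, n = 2 each), a mean difference of -0.80 with a standard error of 0.68 from limma. Without the round 1 ovary array the mean difference turned to 0.11, since the remaining ovary array is of round 2.

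SAMD9L followed its neighbour closely. It stood at 9.06 in stomach and 7.62 in ovary of round 1, and at 9.85 in stomach and 9.45 in ovary of round 2. The arrays kept the order seen for SAMD9, lowest in round 1 ovary and highest in round 2 stomach, and the sites again overlapped. SAMD9L was 2.72-fold lower in ovary in round 1 and 1.32-fold lower in round 2, with site means of 9.46 ± 0.56 in stomach and 8.53 ± 1.30 in ovary (SD, n = 2 each). Its mean site difference of -0.92 ± 0.66 (limma's standard error) fell to -0.0052 without the round 1 ovary array. In round 1, SAMD9L had the 8th and SAMD9 the 23rd lowest difference of all tested genes.

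IFITM3 ran the other way. Its level was 6.25 in stomach and 7.41 in ovary of round 1, and 5.50 in stomach and 5.93 in ovary of round 2. The round 1 ovary array was the highest, and the order of the 4 arrays was the exact mirror of that of SAMD9. IFITM3 was 2.23-fold higher in ovary in round 1, the 16th highest difference of all tested genes, and 1.34-fold higher in round 2. Its site means were 5.88 ± 0.53 in stomach and 6.67 ± 1.05 in ovary (SD, n = 2 each), a difference of 0.79 with a standard error of 0.55, which shrank to 0.051 without the round 1 ovary array. The round 2 stomach value lay under the signal minimum of 5.64, so folds against it start from a signal close to background.

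The other IFITM genes did not share the site difference of IFITM3. IFITM1, the family member of the cell surface, stood at 8.10 in stomach and 8.38 in ovary of round 1, and at 7.66 in stomach and 7.65 in ovary of round 2. Its site difference was thus 0.28 in round 1 and -0.0052 in round 2, with means of 7.88 ± 0.31 in stomach and 8.01 ± 0.51 in ovary (SD, n = 2 each). IFITM2 had 5.35 and 5.74 in stomach and ovary of round 1, and 5.35 and 4.82 in round 2. Only its round 1 ovary value exceeded the signal minimum, and ovary minus stomach came to 0.40 in round 1 and -0.54 in round 2. The description of 2 families in opposite directions between sites therefore held in both rounds for SAMD9 and SAMD9L against IFITM3, and in round 1 alone for IFITM1 and IFITM2. IFITM1, IFITM2 and IFITM3 are close paralogs, and RefSeq lists the antisense gene IFITM3-AS1 over IFITM3, so how far their probe sets share signal is uncertain.

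**Figure D1:**
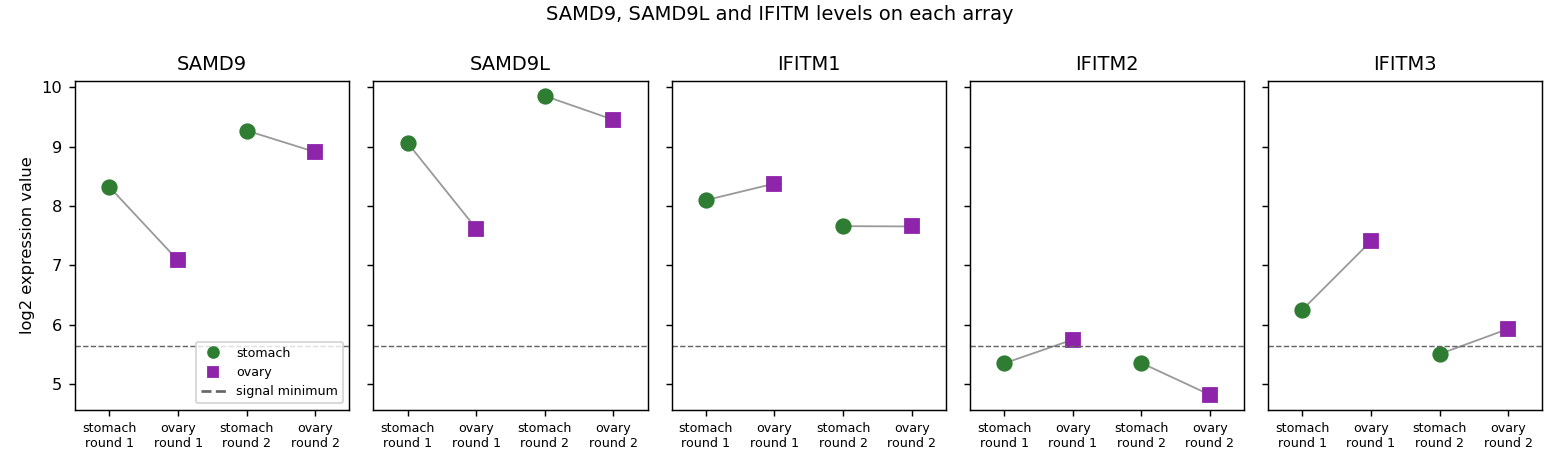
Log2 expression value (vertical axis) of each gene on the 4 arrays, with circles for stomach, squares for ovary and a line joining the arrays of a round; the dashed line is the signal minimum of 5.64. SAMD9 and SAMD9L are lowest and IFITM3 highest in round 1 ovary, while IFITM2 lies near or under the minimum throughout.

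Against all genes, these site differences read as follows. In round 1, 0.275% of the 14547 tested genes were at least 2-fold lower in ovary, SAMD9 and SAMD9L among them, and 0.158% at least 2-fold higher, IFITM3 among them. Sharing a direction across rounds was common: 24.7% of genes were lower in ovary in both rounds and 25.3% higher in both. Because the genes were picked on this contrast, nothing is read from their place in it. Limma called 0.0% of genes between sites at an adjusted p under 0.05, and 378 had an unadjusted p under 0.05.

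The contrast of rounds was not the one on which the genes were picked, although it uses the same 4 arrays and its values were known. SAMD9 was 1.93-fold higher in round 2 in stomach lines and 3.55-fold in ovary lines. SAMD9L was 1.73-fold and 3.56-fold higher. IFITM3 was 1.68-fold lower in round 2 in stomach lines and 2.79-fold lower in ovary lines. IFITM1 was 1.35-fold and 1.65-fold lower, and its round 2 arrays differed from each other by -0.0052. IFITM2 stayed level in stomach lines, with a difference of 0.0061, and differed by -0.93 in ovary lines, where its values lay on both sides of the minimum. SAMD9 and SAMD9L thus stood opposite IFITM1 and IFITM3 in this contrast, in both lineages. The differences of ovary lines contain the round 1 ovary array, on whose values the genes were picked. Both stomach arrays also enter the site differences, so the opposite directions are a description.

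None of these round differences passed the test across all genes. The error in this test includes the site difference, on which the genes were picked. By limma with Benjamini-Hochberg adjustment, the mean difference was 1.39 ± 0.43 for SAMD9 (standard error, adjusted p = 0.298) and 1.31 ± 0.50 for SAMD9L (adjusted p = 0.333). For the IFITM genes it was -1.11 ± 0.41 for IFITM3 (adjusted p = 0.329) and -0.58 ± 0.11 for IFITM1 (adjusted p = 0.287). Limma called 0.0% of the 14547 genes between rounds, while 2178 had an unadjusted p under 0.05. Both round 2 arrays lay above both round 1 arrays in 22.2% of all tested genes, as in SAMD9 and SAMD9L, and below them in 26.8%, as in IFITM1 and IFITM3, so the lack of overlap alone was common. Among ovary lines, 0.701% of genes were at least 2-fold higher in round 2, SAMD9 and SAMD9L among them, and 0.192% at least 2-fold lower, with IFITM3. That difference contains the round 1 ovary array, on whose values the genes were picked, so nothing is read from these shares. Among stomach lines, which do not contain it, SAMD9, SAMD9L and IFITM3 all differed by less than 2-fold. Of the 14547 genes, SAMD9 still had the 29th and SAMD9L the 60th highest difference there, and IFITM3 the 46th lowest. Both stomach arrays also enter the site differences, so these ranks are a description.

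**Figure D2:**
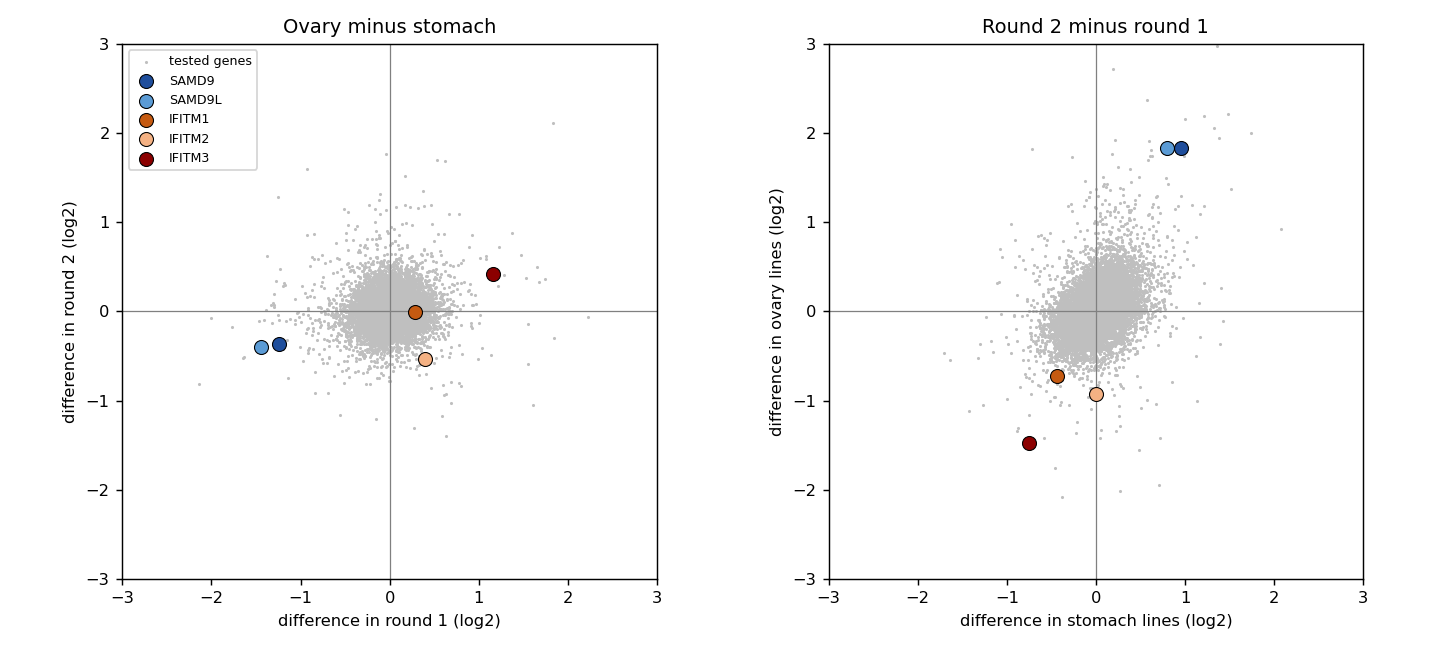
Left, the ovary minus stomach difference of round 1 (horizontal) and round 2 (vertical); right, the round 2 minus round 1 difference of stomach lines (horizontal) and ovary lines (vertical), all in log2 units, with tested genes in grey and the 5 genes in colour. In both panels SAMD9 and SAMD9L lie together, opposite IFITM3, and at a distance from most genes. The genes were picked for site differences on these same arrays.

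The site difference was larger in round 1 than in round 2 for SAMD9, SAMD9L and IFITM3. The round 2 minus round 1 change in it was 0.88, 1.04 and -0.73 log2 units. With 1 array for each combination of site and round, no spread is left against which this change could be tested, and it is given as a value only. The same values can be read as a larger round difference in ovary lines than in stomach lines, since each comparison draws on the round 1 ovary array. Over the 4 arrays SAMD9 covered a range of 2.19, SAMD9L 2.23 and IFITM3 1.90, against a median range of 0.26 over all tested genes. Larger ranges than these were found in 13, 8 and 27 tested genes. The round 1 ovary array is an end of each of these ranges, so they are a description of the values that picked the genes. The range of IFITM1 was 0.72, exceeded by 3.94% of tested genes.

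The order of arrays from round 1 ovary, round 1 stomach and round 2 ovary up to round 2 stomach, shared by SAMD9 and SAMD9L, was found in 5.85% of tested genes. The reverse order of IFITM3 was found in 6.39%. Likeness of profiles was measured as the Euclidean distance over the 4 arrays after centring each gene on its own mean. By this measure, SAMD9L was the nearest of all tested genes to SAMD9 and SAMD9 the nearest to SAMD9L, at a distance of 0.17. Both were picked for low ovary values on these same arrays, which enter the distance, so nothing is read from their nearness. How far probes of the paralogs hybridise to each other's transcripts was not tested.

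Next to SAMD9 came DHRS9, a retinol dehydrogenase family member (distance 0.28), and the Toll-like receptor TLR6 (0.34). DHRS9 stood at 8.35 and 7.11 in stomach and ovary of round 1 and at 8.96 and 8.86 in round 2. Next to SAMD9L came VNN1, a pantetheinase (0.20), and DAB2, a clathrin adaptor (0.24). VNN1 differed between sites by -1.63 in round 1 and -0.51 in round 2, and DAB2 by -1.65 and -0.53. All of these genes shared the drop in the round 1 ovary array that marks the SAMD pair. They were chosen for nearness to that pair, so the shared drop follows from the choice.

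Nearest to IFITM3 were the adaptor GRB10 (distance 0.15), VWA5B1 (0.22) and TBL1X, a corepressor component (0.29). GRB10 stood at 7.31 and 8.39 in stomach and ovary of round 1 and at 6.43 and 7.05 in round 2. IFITM1 ranked 49th in nearness to IFITM3, at a distance of 0.87. At that same distance, IFITM3 ranked only 12915th in nearness to IFITM1. Nearest to IFITM1 were MIOS (0.041), YBX3 (0.068) and ZC4H2 (0.090), and to IFITM2 the tryptophan-degrading enzyme HAAO (0.077), SNORA3A (0.098) and the histone H2AC21 (0.14). With 4 arrays many genes can lie close to any profile, so these names are a description.

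**Figure D3:**
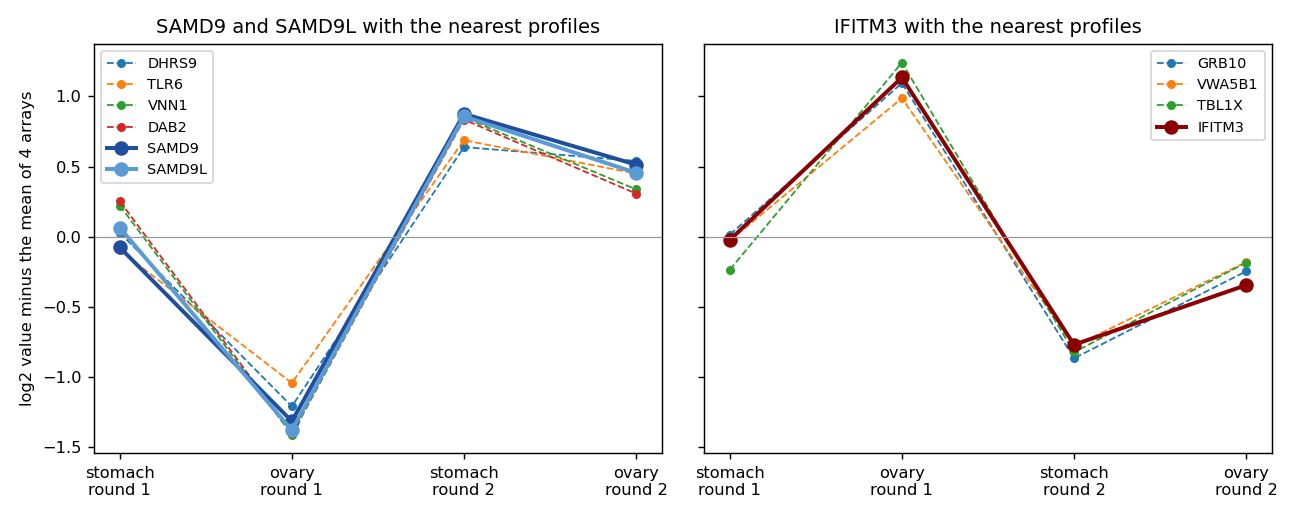
Log2 value minus the mean of the 4 arrays (vertical axis) on each array, for SAMD9 and SAMD9L (left) and IFITM3 (right) in solid lines and their nearest tested genes in dashed lines. The left profiles dip and the right profiles peak in round 1 ovary.

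Neighbouring genes differed less in size than SAMD9, SAMD9L and IFITM3, in the mean between sites and in the mean between rounds. SAMD9, SAMD9L and IFITM3 were picked for site differences on these same arrays, so nothing is read from that. For the SAMD pair the 3 nearest measured protein-coding genes on each side in RefSeq order were CDK6, RBM48 and ERVW-1, and HEPACAM2, VPS50 and CALCR. Their round 1 site differences lay between -0.46 and 0.20, and their mean round differences between -0.19 and 0.18. CDK6, a cell cycle kinase, differed by 0.053 between sites in round 1, and HEPACAM2, the neighbour next to SAMD9L, by -0.38 in round 1 and 0.16 in round 2. Around the IFITM cluster, IFITM5, PGGHG, NLRP6, B4GALNT4, PKP3 and SIGIRR differed between sites in round 1 by -0.35 to 0.24 and between rounds on average by -0.26 to -0.059. IFITM5, the bone member of the family, was 0.35 lower in ovary in round 1, opposite in sign to IFITM3, at levels of 5.67 to 6.15 near the minimum. B4GALNT4, a glycosyltransferase, was higher in ovary in both rounds, by 0.24 and 0.34, a mean of 0.29 beside 0.14 for IFITM1. All 6 neighbours of the IFITM cluster were lower in round 2 on average, as IFITM1 and IFITM3 were. The median over all tested genes was also below 0, at -0.019, but nearer to 0 than the value of any of these neighbours. Of all tested genes, 34.7% were lower in round 2 at both sites. Whether the neighbours share a shift with IFITM1 and IFITM3 was not tested. In stomach lines IFITM5 differed by -0.40 beside -0.44 for IFITM1, while PKP3 differed by 0.0.

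The wider interferon system was read through 10 lists with 113 measured genes, of which 83 were tested. Limma called none of the 83 between sites or between rounds at an adjusted p under 0.05. In round 1, 56 of 83 were lower in ovary and in round 2, 45. Lower in both rounds were 31 (37.3%, against 24.7% of all tested genes). Higher in both were 11, against 25.3% of all tested genes. Their median ovary minus stomach value was -0.092 for round 1 and -0.015 for round 2, beside -0.0053 and 0.0076 over all tested genes. In round 2, 39 were higher at both sites (47.0%, against 29.0% of all tested genes) and 23 lower at both, against 34.7% of all tested genes. The array order of SAMD9 was found in 12 of the 83 (14.5%, against 5.85% of all tested genes). That of IFITM3 was found in 4 (4.82%, against 6.39%): the regulator IRF8, the dynamin-like GTPase MX2, the tetraspanin CD81 and SYNDIG1.

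Of 11 measured interferon genes, 8 lay under the signal minimum, and the 3 tested were all of the lambda type. IFNL3 stood between 8.22 and 8.30 on all 4 arrays. IFNL2 had 7.28 and 7.06 in stomach and ovary of round 1, and 7.01 and 6.38 in round 2. Receptors and signal transducers were higher in round 2 at both sites in 8 of 10 tested genes, with a median round difference of 0.22. Among them were the kinase JAK2, higher by 0.35 in stomach and 0.58 in ovary lines, and the receptor chain IFNAR2, higher by 0.47 and 0.19. IRF9, the DNA-binding part of that complex, had 7.14 and 6.87 in stomach and ovary of round 1, and 7.33 and 7.24 in round 2, in the order of SAMD9. The lambda receptor chain IL10RB was 0.15 lower in ovary in round 1 and 0.32 in round 2.

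Among the 6 tested regulatory factors, 4 were lower in ovary in both rounds. The activator IRF1 had 7.51, 7.18, 7.82 and 7.68 in round 1 stomach and ovary and round 2 stomach and ovary. IRF2 was 0.32 lower in ovary in round 1 and 0.37 in round 2, and IRF8 was 0.28 and 0.23 higher. Of 6 tested negative regulators and modifiers, 2 were lower in ovary in both rounds: PIAS1 by 0.12 and 0.14, and USP18, which removes ISG15 from proteins, by 0.069 and 0.12. SOCS1, a feedback inhibitor of Janus kinases, was 0.38 lower in round 2 in stomach and 0.23 in ovary lines. Of 9 tested nucleic acid sensors, 4 were higher in round 2 at both sites, with RIGI, the sensor of viral RNA, at 0.62 and 0.53 and the kinase TBK1 at 0.27 and 0.45.

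Effectors acting on RNA and translation include the oligoadenylate synthetases. Of 10 tested, 4 were lower in ovary in both rounds and 7 higher in round 2 at both sites, with none called. OAS2, an oligoadenylate synthetase that activates RNase L, stood at 6.96 and 5.64 in stomach and ovary of round 1 and at 7.13 and 7.00 in round 2. OAS1 had 10.76 and 9.90 in round 1 and 10.87 and 10.69 in round 2, and OAS3 was 0.33 and 0.34 lower in ovary. The CpG-binding antiviral protein ZC3HAV1 was higher in round 2, by 0.24 in stomach and 0.81 in ovary lines.

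Of 14 other tested restriction factors, 3 were lower in ovary in both rounds and 4 higher. GBP2, an interferon-inducible GTPase, stood at 7.27 and 6.24 in stomach and ovary of round 1 and at 7.75 and 7.74 in round 2. GBP3 was 0.17 and 0.55 lower in ovary, and the deaminase APOBEC3B was higher in round 2 by 0.37 in stomach and 1.14 in ovary lines. MX2 was 0.42 higher in ovary in round 1 and 0.071 in round 2. At least 2-fold lower in ovary in round 1 were 2 of the 83 pathway genes, OAS2 and GBP2 (2.41%, against 0.275% of all tested genes). The OAS2 value of that ovary array lay just under the signal minimum, so its fold rests on a signal close to background. None of the 83 had a mean site difference, a mean round difference or a range as large as those of IFITM3. Because IFITM3 was picked for its site difference on these same arrays, nothing is read from that.

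Other interferon-stimulated genes were lower in ovary in both rounds in 5 of 13 tested, among them IFI35 (by 0.66 and 0.26), LGALS3BP (0.45 and 0.13) and IFI27 (0.087 and 0.42). The nuclear body gene SP100 was higher in round 2 by 0.31 and 0.43. Of the 52 measured effector genes in these 3 lists, 15 lay under the signal minimum. IFIT1, IFIT2, IFIT3, RSAD2, TRIM22 and BST2, widely used markers of an interferon response and picked here after their values were seen, ranged from 3.79 to 5.38 on all arrays. Their within-round site differences did not exceed 0.27 in size. Larger ones were found among the other genes under the minimum. IFI44 differed between sites by -0.16 in round 1 and 0.83 in round 2, and SLFN5 by -0.35 and 0.55. ISG15, a ubiquitin-like modifier, was above the minimum and lay between 7.09 and 7.25.

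**Figure D4:**
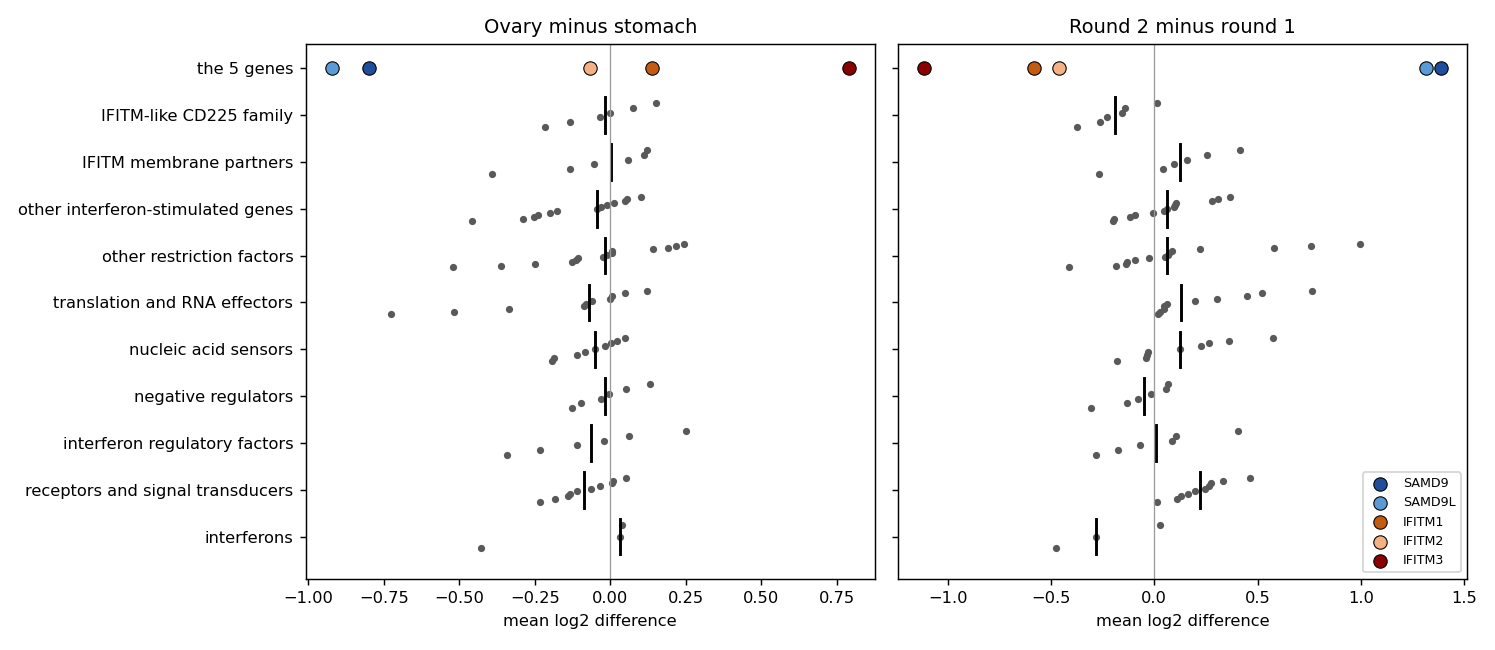
Mean log2 difference (horizontal axis) between sites (left) and rounds (right) of each tested gene in 10 interferon-related lists, with black bars at list medians and the 5 genes in colour in the top row. SAMD9, SAMD9L and IFITM3, which were picked for site differences on these same arrays, lie beyond every listed gene in both panels.

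Partners of the IFITM proteins went separate ways. CD81, a tetraspanin that binds IFITM1 at the cell surface, had 11.19 and 11.39 in stomach and ovary of round 1 and 11.01 and 11.03 in round 2, in the order of IFITM3. CD63, a tetraspanin of late endosomes, had 9.58 and 8.97, then 9.78 and 9.61, in the order of SAMD9. CD9 was 0.34 higher in ovary in round 1 and 0.10 lower in round 2. The protease ZMPSTE24, a cofactor of IFITM action, stayed between 9.95 and 10.11. In the related CD225 family, 4 of 6 tested genes were lower in round 2 at both sites, as were IFITM1, IFITM3 and 34.7% of all tested genes. PRRT2 was lower by 0.50 and 0.25 and PRRT1 by 0.19 and 0.27.

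Markers of other cells were set beside these genes. Of 7 epithelial genes, all were lower in ovary in round 1, with a median difference of -0.25, and 5 in round 2, with a median of -0.012. Of 7 tested leukocyte genes, 6 were lower in ovary in both rounds, with medians of -0.10 and -0.067, and none was higher in round 2 at both sites. The leukocyte list includes CD68, a lysosomal protein, which lay between 9.47 and 9.89. Of tested fibroblast genes 4 of 5 were lower in ovary in both rounds, of endothelial genes 1 of 6 and of ovarian genes 0 of 5. In round 2, 5 of 5 fibroblast, 4 of 6 endothelial and 3 of 5 ovarian genes were lower at both sites. The endothelial junction gene ESAM was an exception, higher in round 2 by 1.12 in stomach and 0.83 in ovary lines. The hosts were mice, so any host cell would be a mouse cell, while the probe sets are for human genes. Values of these markers are therefore no measure of host cell numbers, and how far mouse RNA is read was not tested. The part of such shifts in the SAMD and IFITM differences was not tested.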

How the data were processed

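Total RNA came from pellets of cultured cells, per the labels' protocols. The authors deposited a table of log2 values with 33297 probe sets and 4 arrays, and the submitters' processing notes name Affymetrix Expression Console. Background correction, normalization and genome build were not given in the sources used here. Their range showed that values are log2. Scaling between arrays would hide a shift common to all transcripts.

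Gene names came from GEO's platform annotation: 19460 probe sets carried 1 symbol, 1754 several (not used) and 12083 none. Symbols were updated to RefSeq (GRCh38.p14), where 19429 were found. Each gene was represented by its probe set with the highest mean. The fits used limma 3.58.1 (R 4.3.3) over all 14547 tested genes, with two-sided moderated tests and Benjamini-Hochberg adjustment at 0.05. The fits had 2 residual degrees of freedom, which for sites include the round difference and for rounds the site difference. Only the round fit was run on simulated data. Those data held no site difference, so that run does not cover this part of the error. A planned fit of the interaction counts both differences as error and is not used. Deviations of same-round arrays from their site means correlated at 0.411 across genes (2 pairs), and the round number is in the titles, so fits with a replicate block were run. Promoters were aligned with Biopython 1.88 and figures drawn with matplotlib 3.10.9.

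The 5 genes and the lists were chosen with earlier results of these data known. Named genes were all 5 members, up to 3 genes per list by mean site difference and 2 by mean round difference, the 3 nearest profiles per member and 3 neighbours on each side. PTPRC, TYROBP, COL1A1, ZP3, EPCAM, CDH1, CD68, ESAM, ISG15, MX2, ZMPSTE24, IFIT1, IFIT2, IFIT3, RSAD2, TRIM22, BST2, IFI44 and SLFN5 were named after their values were seen. Alternatives covered the signal minimum, scaling, probe set choice, priors, the block and leaving out arrays.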

Additional observations from a re-analysis of the deposited data

Results flagged for a closer look

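IFITM1 and IFITM2 are singled out because their site differences had opposite signs in the 2 rounds. The interaction, the round 2 site difference minus that of round 1, was -0.28 for IFITM1. For IFITM2 it was -0.94, at levels around the signal minimum. Neither difference between rounds was tested, since 1 array for each combination of site and round leaves no spread to test it against.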

How the results depend on the processing

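Limma called 0 genes between sites and between rounds under each alternative run, with unadjusted p under 0.05 in 288 to 916 and 1376 to 2481 genes. With the site as a replicate block, the round differences were unchanged in size (1.39 for SAMD9, 1.31 for SAMD9L, -1.11 for IFITM3 and -0.58 for IFITM1), with adjusted p of 0.208, 0.215, 0.208 and 0.212 in limma, and the block changed no call. The pathway genes lower in ovary in both rounds numbered 29 to 33 with other scaling or probe set choice, against 31. They numbered 37 without a signal minimum and 25 with it at the 50th percentile. Those 2 settings change how many genes are tested, so their counts are not directly comparable with 31. Quantile normalization or centring moved no difference of the 5 genes by more than 0.047, and averaging probe sets changes nothing for genes with 1. Leaving out each array gave site differences of -1.71 to 0.11 for SAMD9, -1.84 to -0.0052 for SAMD9L and 0.051 to 1.53 for IFITM3, each nearest to 0 without the round 1 ovary array. IFITM1 spanned -0.22 to 0.50 and IFITM2 -0.53 to 0.40. The round differences kept their sign for all 5 genes, at 0.77 to 2.01 for SAMD9, 0.59 to 2.03 for SAMD9L, -1.69 to -0.54 for IFITM3, -0.72 to -0.44 for IFITM1 and -0.73 to -0.19 for IFITM2. Exchanging the round 2 sites, an alternative chosen after seeing the data, gave mean site differences of -0.44 (SAMD9), -0.52 (SAMD9L), 0.37 (IFITM3), 0.14 (IFITM1) and 0.47 (IFITM2), against -0.80, -0.92, 0.79, 0.14 and -0.068. Signal near the floor limits IFITM2 and the round 2 values of IFITM3, and 1 array per combination of site and round limits all comparisons.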
